A study of Oryza sativa with 6 samples.

Results

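The sites described here are stretches of rice genomic DNA on which BG4-DNA-IP-seq called a peak in exactly 3 of 4 libraries. Peaks of all 4 lists were pooled, peaks that overlapped by 1 bp or more were merged, and merged intervals under 2000 bp with peaks from exactly 3 libraries were kept. The members were therefore chosen by the peak calls themselves, so their numbers and strengths are given as a description without a test. They number 20844 of 113421 merged intervals under 2000 bp (18.4%) and of 115855 merged intervals in all, and they cover 13.6 of the 61.6 Mb in merged intervals under 2000 bp. The longest member has 1998 bp, and the shortest of the 103 intervals left out for their length has 2003 bp. Within the members, the lowest −log10 p of a peak that stands for its library was 2.002, just above the threshold of 2 below which the lists hold nothing.

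A G-quadruplex (G4) is a fold of guanine-rich DNA in which guanines pair in planar tetrads that stack and hold a potassium ion between them. BG4 is a single-chain antibody that binds such folds. Here it was used on purified, fragmented DNA that had been denatured and reannealed, and not on chromatin. Polyethylene glycol (PEG) crowds the solution and favours compact folds, whereas pyridostatin (PDS) is a small ligand that stacks on G-tetrads.

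The DNA came from aerial parts of 2-week-old wild-type Nipponbare seedlings that had been cross-linked with formaldehyde. The K+PEG libraries (replicates 1 and 2) were incubated with 150 mM KCl and 40% PEG, and the K+PDS libraries (replicates 1 and 2) with 150 mM KCl and 5.0 μM PDS. The concentration of PDS and its use in place of PEG come from the methods of the study, because the protocol text in the labels is the same for all samples and names PEG alone. The lists hold 73199 peaks for K+PEG replicate 1 and 81992 for K+PEG replicate 2, against 64874 for K+PDS replicate 1 and 68973 for K+PDS replicate 2. No peak name in the K+PEG lists contains the word uniq, which the names in both K+PDS lists do, and whether the reads were filtered differently was not settled. The lowest local background in a list, which scales with the reads of the library and with the length to which they were extended, was 4.16 reads in K+PEG replicate 1 and 7.02 reads in K+PEG replicate 2, against 3.15 reads in K+PDS replicate 1 and 3.98 reads in K+PDS replicate 2. This background was thus highest in K+PEG replicate 2 and lowest in K+PDS replicate 1. Read totals were not analysed here, so the depth of the libraries was not measured directly. At that background, a p of 0.01 takes at least 10 reads at the summit for K+PEG replicate 1 and 14 reads for K+PEG replicate 2, against 8 reads for K+PDS replicate 1 and 9 reads for K+PDS replicate 2. The corresponding fold enrichment, the reads at the summit over the local background with 1 added to each, was 2.13, 1.87, 2.17 and 2.01 in the same order.

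Each 3-library site lacks a peak of a particular library, and this gives 4 subclasses. K+PEG replicate 1 was missing at 5009 sites (24.0%), K+PEG replicate 2 at 1729 (8.29%), K+PDS replicate 1 at 5875 (28.2%) and K+PDS replicate 2 at 8231 (39.5%). In all, 6738 sites (32.3%) lacked a K+PEG library and had both K+PDS libraries, and 14106 sites (67.7%) lacked a K+PDS library and had both K+PEG libraries. The library with the highest background and the most peaks was the least often missing. The library most often missing was K+PDS replicate 2, although K+PDS replicate 1 had a lower background and fewer peaks. The sizes of 2 subclasses moved by over 1.5 times with the choice of peaks. With the 64874 strongest peaks of each library, 3010 sites missed K+PEG replicate 2, and 2921 sites missed K+PEG replicate 1 when a −log10 p of 5 or more was required of every peak. In both settings K+PDS replicate 2 gave the largest subclass and K+PEG replicate 2 the smallest.

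**Figure D1:**
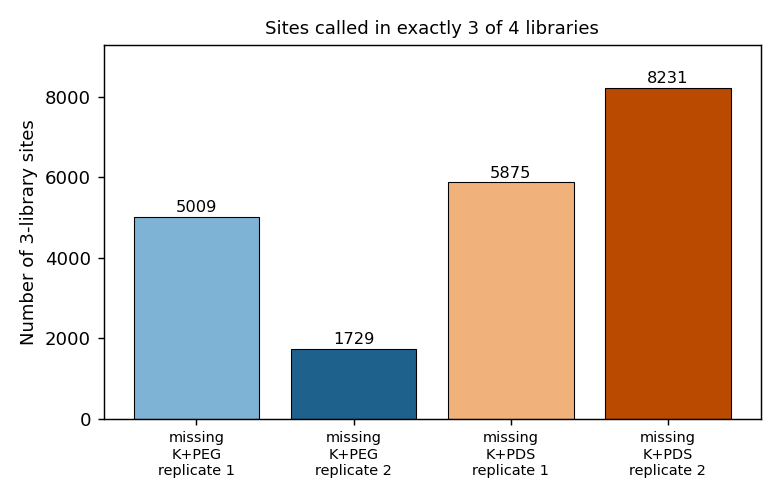
Number of 3-library sites (vertical axis) by the library in which no peak was called (horizontal axis). The bars run from 1729 sites without K+PEG replicate 2 to 8231 sites without K+PDS replicate 2.

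A missing call can be set against the sites that a library could have shared. Of the sites under 2000 bp called in the other 3 libraries, K+PEG replicate 1 also called 83.4% (of 30164 sites), K+PEG replicate 2 called 93.6% (of 26884), K+PDS replicate 1 called 81.1% (of 31030) and K+PDS replicate 2 called 75.3% (of 33386). These shares changed with the strength of the other calls, and not alike in all libraries. When the lowest fold enrichment among the other 3 libraries was under 2.5, K+PEG replicate 1 called 65.6% of the sites (95% Wilson interval 64.2 to 66.9%) and K+PDS replicate 1 called 68.3% (66.9 to 69.6%). When it was 5 or more, they called 99.1% (98.5 to 99.5%) and 98.5% (97.8 to 99.0%), and lacked only 12 of 1363 and 21 of 1425 sites. In both replicate 1 libraries, then, a call was rarely missing at sites with a fold enrichment of 5 or more. Most sites lay below 5 for every library, so most missing calls lay there in all of them.

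K+PEG replicate 2 behaved differently. It called 89.0% (87.8 to 90.1%) of the weakest sites, more than any other library, and 95.1% (94.1 to 95.9%) of the sites with a fold enrichment of 5 or more, where it lacked 101 of 2051. At such strong sites K+PEG replicate 2 was therefore missing more often than either replicate 1 library at its own strong sites. The other 3 libraries that set the strength differ for each library, so the sets of sites differ and the strengths are not on one scale. K+PDS replicate 2 called 69.2% (67.7 to 70.8%) of the weakest sites, 72.5% (71.8 to 73.3%) of those from 3 to 4 and 91.1% (90.3 to 91.9%) of those of 5 or more, where it lacked 426 of 4809. The intervals cover counting error over sites, which share a genome and are not replicates, and no test over libraries was made of these shares because the rule used the same calls.

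**Figure D2:**
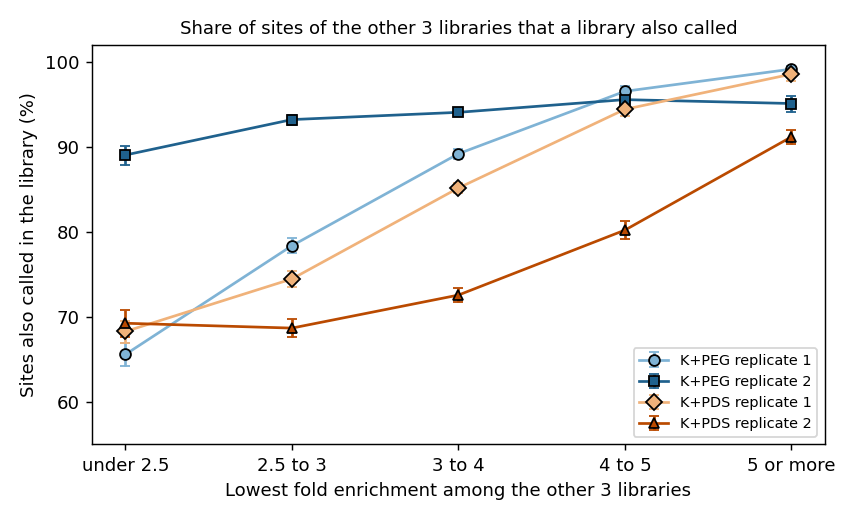
Percent of sites called in the other 3 libraries that a library also called (vertical axis, starting at 55%), by the lowest fold enrichment among the other 3 (horizontal axis), with 95% Wilson intervals as bars. Both replicate 1 curves climb to over 98%, the K+PEG replicate 2 curve lies between 89.0 and 95.5% throughout, and the K+PDS replicate 2 curve ends at 91.1%.

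The strength of the calls differed among subclasses. The lowest of the 3 fold enrichments at a site had a median of 2.70 (middle 50% of sites, 2.38 to 3.04) where K+PEG replicate 1 was missing and of 3.04 (2.61 to 3.67) where K+PEG replicate 2 was missing. It was 2.78 (2.47 to 3.16) where K+PDS replicate 1 was missing and 3.16 (2.72 to 3.75) where K+PDS replicate 2 was missing. The middle ranges of all 4 subclasses overlap, and each lowest value comes from a different set of 3 libraries, so the medians are not on one scale. Over all 3-library sites the median was 2.91, compared with 3.10 at the 25155 sites with all 4 libraries and 2.89 at the 24947 sites with 2 libraries, but the lowest of several calls falls as their number grows, so these 3 medians are not on one footing. A −log10 p of at least 5 in all 3 libraries was reached by 36.7% of the sites missing K+PEG replicate 1, 51.0% of those missing K+PEG replicate 2, 42.3% of those missing K+PDS replicate 1 and 57.6% of those missing K+PDS replicate 2.

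Within each library, calls at 3-library sites had a lower median than those at sites with all 4. In K+PEG replicate 1 the median fold enrichment was 3.86 at 15835 members, 4.65 at 4-library sites and 3.44 at 2-library sites. In K+PEG replicate 2 it was 3.82 at 19115 members, 4.98 at 4-library sites and 3.22 at 2-library sites. K+PDS replicate 1 had 3.61 at 14969 members, 4.54 at 4-library sites and 3.37 at 2-library sites. K+PDS replicate 2 had 3.20 at 12613 members, 3.59 at 4-library sites and 3.04 at 2-library sites. Pooled over the subclasses, the members thus lay between both classes in each library, but not every subclass did. K+PEG replicate 2 had 2.97 at sites missing K+PEG replicate 1, below its 3.22 at 2-library sites. K+PDS replicate 2 had 3.62 at sites missing K+PEG replicate 2, just above its 3.59 at 4-library sites. The reads at the summit had medians of 22, 34, 16 and 17 at the members and 26, 45, 20 and 19 at the 4-library sites, in the same order of libraries. The gap to the 4-library sites was narrowest in K+PDS replicate 2, whose calls were weak at both kinds of site and which held the lowest fold enrichment at 49.8% of the 4-library sites.

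The library left alone in its condition was most often the weakest of the 3. At sites missing K+PEG replicate 1, K+PEG replicate 2 had a median of 2.97 from 25 reads and held the lowest fold enrichment in 53.5% of sites. At sites missing K+PEG replicate 2, K+PEG replicate 1 had 3.49 from 19 reads and was lowest in 49.0%. Where K+PDS replicate 1 was missing, K+PDS replicate 2 had 3.04 from 17 reads and was lowest in 58.8%. Where K+PDS replicate 2 was missing, K+PDS replicate 1 had 3.53 from 16 reads and was lowest in 56.3%. The partner of the missing library thus had the lowest median of the 3 libraries in every subclass. At 4-library sites, K+PEG replicates 1 and 2 were the lowest of the 4 in 13.9% and 21.1%, and K+PDS replicates 1 and 2 in 15.2% and 49.8%. K+PDS replicate 2 was therefore often the weakest there too, unlike the other libraries.

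The sites that miss K+PDS replicate 2 differ from the rest in the strength of K+PEG replicate 2. There, K+PEG replicate 2 had a median of 4.86 (middle 50%, 3.65 to 6.33) from 44 reads, close to its 4.98 from 45 reads at 4-library sites. Where K+PDS replicate 1 was missing instead, the same library had 3.69 (2.97 to 4.61) from 34 reads. As a difference of log2 fold enrichments, K+PEG minus K+PDS, the median was -0.22 and -0.15 at sites missing K+PEG replicates 1 and 2, and 0.30 at sites missing either K+PDS replicate, compared with 0.28 at 4-library sites. K+PEG had the higher value at 29.5% and 36.5% of the sites missing K+PEG replicates 1 and 2, at 74.3% and 73.5% of those missing K+PDS replicates 1 and 2, and at 66.1% of 4-library sites. Each condition was the mean over its libraries with a call. A lone library thus stands for the condition of the missing library, whereas at 4-library sites both replicates count on each side. The missing library was left out and not counted as low, so the subclasses and the 4-library sites are not on one footing.

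**Figure D3:**
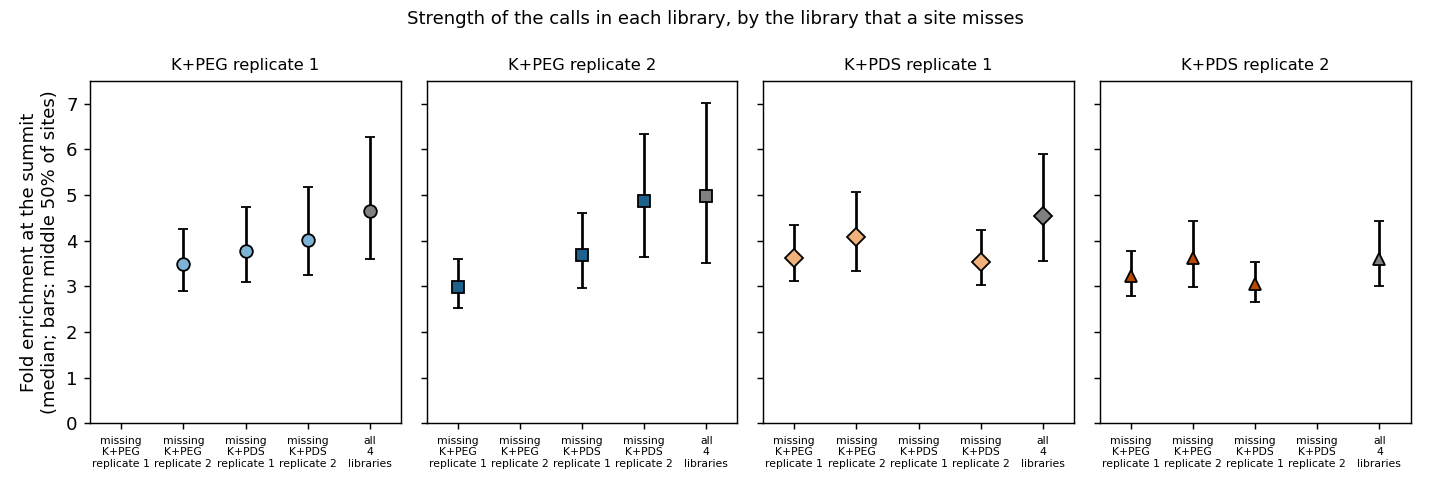
Median fold enrichment at the summit (vertical axis, bars show the middle 50% of sites) in each library (panels) for the 4 subclasses and, in grey, for sites with all 4 libraries (horizontal axis). In each panel the grey point is the highest or, in K+PDS replicate 2, level with the sites missing K+PEG replicate 2 (3.59 and 3.62).

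Strong sites were unevenly spread over the subclasses. A fold enrichment of at least 5 in all 3 libraries was found at 560 sites (2.69%), compared with 4.66% of the 4-library sites for all 4 libraries. Of the 560, 12 missed K+PEG replicate 1, 101 missed K+PEG replicate 2, 21 missed K+PDS replicate 1 and 426 missed K+PDS replicate 2. As shares of their subclasses these are 0.24%, 5.84%, 0.36% and 5.18% in the same order, so strong sites were most frequent where K+PEG replicate 2 was missing. Each subclass was judged on a different set of 3 libraries, so the shares also depend on which libraries set the limit. Sites whose 3 calls all reached the median fold enrichment of the missing library's own list numbered 218 (4.35%) for K+PEG replicate 1, 475 (27.5%) for K+PEG replicate 2, 387 (6.59%) for K+PDS replicate 1 and 3871 (47.0%) for K+PDS replicate 2. Conversely, 488 and 11 sites missing K+PEG replicates 1 and 2, and 468 and 115 missing K+PDS replicates 1 and 2, had a call below the fold enrichment that the missing library needs at its lowest background.

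The strongest site without K+PEG replicate 1 spans positions 15162825 to 15163167 of chromosome 4 in the MSU v7.0 build. Its fold enrichment was 8.61 in K+PEG replicate 2 and 11.1 and 9.04 in K+PDS replicates 1 and 2, from 68, 45 and 44 reads at the summit. The 3 summits fall within 24 bp, at 15162976 in K+PEG replicate 2 and at 15163000 in both K+PDS libraries, and the nearest K+PEG replicate 1 peak is 10580 bp away. The next sites were weaker. The second lies on chromosome 4 from 19648138 to 19648633, with 7.47 in K+PEG replicate 2 and 9.38 and 6.62 in K+PDS replicates 1 and 2. The third lies on chromosome 11 from 23815468 to 23815804, with 6.61 in K+PEG replicate 2 and 9.16 and 5.83 in the K+PDS replicates. In all 3 sites K+PDS replicate 1 was the strongest library.

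The strongest 2 sites without K+PEG replicate 2 lay close together on chromosome 12. The site from 12023547 to 12024697 had 9.68 in K+PEG replicate 1 and 9.70 and 9.71 in K+PDS replicates 1 and 2, from 57, 49 and 55 reads. Its 3 strongest summits lie within 10 bp, and it holds 5 peaks in all. Shortly before it, the site from 12018622 to 12019232 had 9.35 from 69 reads in K+PEG replicate 1, 9.30 from 61 reads in K+PDS replicate 1 and 11.6 from 86 reads in K+PDS replicate 2. Peaks of K+PEG replicate 2 lie 1385 and 517 bp from these sites, so the library had calls in the neighbourhood but not on them. The third site, on chromosome 5 from 12502028 to 12502358, had 8.72 in K+PEG replicate 1 and 9.16 and 9.24 in the K+PDS replicates.

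Without K+PDS replicate 1, the strongest site lies on chromosome 5 from 6906806 to 6907831, with 7.85 in K+PEG replicate 1, 8.15 in K+PEG replicate 2 and 8.51 in K+PDS replicate 2. Its summits fall within 4 bp, and a K+PDS replicate 1 peak lies 536 bp away. The second, on chromosome 8 from 15654743 to 15655146, had 7.73 and 7.12 in the K+PEG replicates and 7.85 in K+PDS replicate 2, and its nearest K+PDS replicate 1 peak is 8580 bp away. The third, on chromosome 1 from 14513044 to 14513789, had 10.4 and 9.95 in the K+PEG replicates and 6.51 in K+PDS replicate 2. In the first 2 sites the 3 libraries were of like strength, whereas in the third both K+PEG libraries were stronger.

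Without K+PDS replicate 2, the strongest site lies on chromosome 4 from 23826358 to 23826956, with 11.5 from 61 reads in K+PEG replicate 1, 9.75 from 81 reads in K+PEG replicate 2 and 10.6 from 44 reads in K+PDS replicate 1. The second, on chromosome 5 from 24013160 to 24013780, had 10.5 and 9.88 in the K+PEG replicates and 9.68 in K+PDS replicate 1. The third, on chromosome 7 from 16950001 to 16950486, had 9.64 and 11.3 in the K+PEG replicates and 10.2 in K+PDS replicate 1, with summits at 16950226, 16950226 and 16950229. K+PDS replicate 2 peaks lie 2806, 803 and 3085 bp from these 3 sites. The 3 summits fall within 10, 56 and 3 bp in these sites, and the libraries were of like strength in each.

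The sites nearest the median of their subclass in the lowest fold enrichment were much weaker in that value, though not in every library. The site nearest the median without K+PEG replicate 1, on chromosome 4 from 6608863 to 6609589, had 3.15 in K+PEG replicate 2 and 2.70 and 4.22 in K+PDS replicates 1 and 2, from 26, 17 and 20 reads. Its counterpart without K+PEG replicate 2, on chromosome 2 from 13810127 to 13810517, had 5.28 in K+PEG replicate 1 and 3.64 and 3.04 in the K+PDS replicates, and lies 201 bp from a K+PEG replicate 2 peak. Without K+PDS replicate 1, the site on chromosome 1 from 33077606 to 33078460 had 3.90 and 3.74 in the K+PEG replicates and 2.78 in K+PDS replicate 2. Without K+PDS replicate 2, the site on chromosome 2 from 7115727 to 7116504 had 7.05 and 7.29 in the K+PEG replicates but 3.16 in K+PDS replicate 1, from 38, 62 and 13 reads. In the last 2 of these 4 sites the lone K+PDS library was the weakest.

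**Figure D4:**
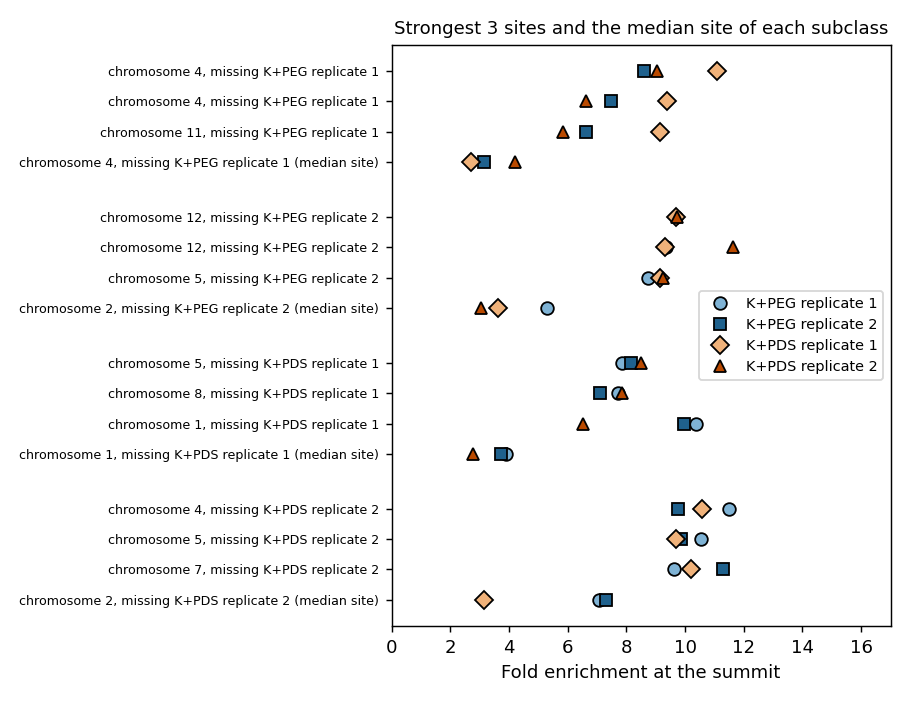
Fold enrichment at the summit (horizontal axis) in each of the 3 libraries (symbols) at the strongest 3 sites and the site nearest the median of each subclass (rows, grouped by the missing library). The strongest sites lie between 5.83 and 11.6 in all 3 libraries, and the median sites between 2.70 and 7.29.

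The members were mostly simple sites. Each of the 3 libraries had a single peak at 89.1% of them, and no site held more than 7 peaks. At 95.4% of the members, at least 1 base was covered by all 3 libraries, compared with 94.2% of the 4-library sites for all 4. The other 962 members are chains in which the peaks overlap in turn without a base common to the 3. The shared stretch had a median of 209 and 220 bp where K+PEG replicates 1 and 2 were missing, and 213 and 250 bp where K+PDS replicates 1 and 2 were missing.

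By the median and within 100 bp, the summits agreed best where K+PDS replicate 2 was missing. The distance between the outermost of the 3 summits had a median of 195 and 116 bp at sites missing K+PEG replicates 1 and 2, and of 155 and 106 bp at sites missing K+PDS replicates 1 and 2. It was at most 100 bp at 28.1% and 45.3% of the sites missing K+PEG replicates 1 and 2, and at 32.5% and 47.7% of those missing K+PDS replicates 1 and 2. Within 50 bp the order turned, with 23.1% of the sites missing K+PEG replicate 2 and 21.6% of those missing K+PDS replicate 2. Over all members the median was 137 bp, compared with 217 bp over 4 summits at the longer 4-library sites, a value that also grows with the number of summits. The 2 subclasses with close summits are also those with the stronger calls.

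The distance to the nearest peak of the missing library varied widely. Its median was 1578 and 904 bp for K+PEG replicates 1 and 2, and 2886 and 1659 bp for K+PDS replicates 1 and 2. It was at most 200 bp at 4.61% and 7.69% of the sites missing K+PEG replicates 1 and 2, and at 2.96% and 6.54% of those missing K+PDS replicates 1 and 2. It was over 5000 bp at 18.1% and 7.23%, and at 30.8% and 19.2%, of the same subclasses, and over 20000 bp at 73 members. These distances depend on how many peaks a list has and were not set against those of other positions in the genome. K+PEG replicate 2, with the longest list, had the shortest distances and K+PDS replicate 1, with the shortest list, the longest.

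The median length of the sites was 629 and 549 bp where K+PEG replicates 1 and 2 were missing, and 560 and 583 bp where K+PDS replicates 1 and 2 were missing. The subclasses of the 2 conditions overlap in length with all peaks. The mean of the medians was 589.0 ± 56.6 bp (SD, n = 2 libraries) for a missing K+PEG library and 571.5 ± 16.3 bp (n = 2) for a missing K+PDS library, a difference of 17.5 bp. The overlap depended on the choice of peaks, since both subclasses missing a K+PEG library were longer than both missing a K+PDS library with a −log10 p of at least 5 (a difference of 76 bp) and with equal numbers of peaks (69.5 bp). The rule itself limits length, and its limit removed 84 and 11 sites that missed K+PEG replicates 1 and 2, against 3 and 5 that missed K+PDS replicates 1 and 2, so these differences are given as a description. The exact permutation test over libraries was computed for the 17.5 bp and made no call. It could make none, because 2 libraries against 2 cannot give a p below 0.333 in it. The members had a median of 583 bp over all subclasses, between 849 bp for 4-library and 408 bp for 2-library sites, and a merged interval grows with the number of peaks in it.

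Position was compared as the distance of a site from the nearer chromosome end, in percent of the span of that chromosome in the lists. The median was 27.5% and 32.6% at sites missing K+PEG replicates 1 and 2, and 23.6% and 26.2% at sites missing K+PDS replicates 1 and 2. It was 26.9% at 4-library sites, close to that of the sites missing K+PEG replicate 1. Both subclasses missing a K+PEG library thus lay farther from the ends than both missing a K+PDS library, with a mean of 30.0% ± 3.62 (SD, n = 2 libraries) compared with 24.9% ± 1.82 (n = 2) for a missing K+PDS library. Each library has calls in 3 of the 4 subclasses, so the 4 subclass values are not independent. The difference of 5.09 percentage points had p = 0.333 in the exact permutation test over libraries (two-sided), the smallest p that 2 libraries against 2 allow, and p = 0.667 after Benjamini-Hochberg adjustment over the 2 comparisons computed, of length and position. Without the subclass of K+PEG replicate 2 the difference was 2.53 percentage points, and without that of K+PEG replicate 1 it was 7.65. The middle of the chromosomes, at 40% or more from the nearer end, held 20.9% of the sites missing K+PEG replicate 1, 28.8% of those missing K+PEG replicate 2, 17.7% of those missing K+PDS replicate 1 and 20.9% of those missing K+PDS replicate 2, compared with 22.3% of the 4-library sites. Among the 101 strong sites without K+PEG replicate 2, with at least 5 in the other libraries, 53 (52.5%) lay there, compared with 100 of 426 (23.5%) without K+PDS replicate 2. Without K+PEG replicate 1 it was 2 of 12, and without K+PDS replicate 1 it was 3 of 21. The 101 sites cluster, with 18 of them in a single stretch of 1 Mb, so they are not independent positions.

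**Figure D5:**
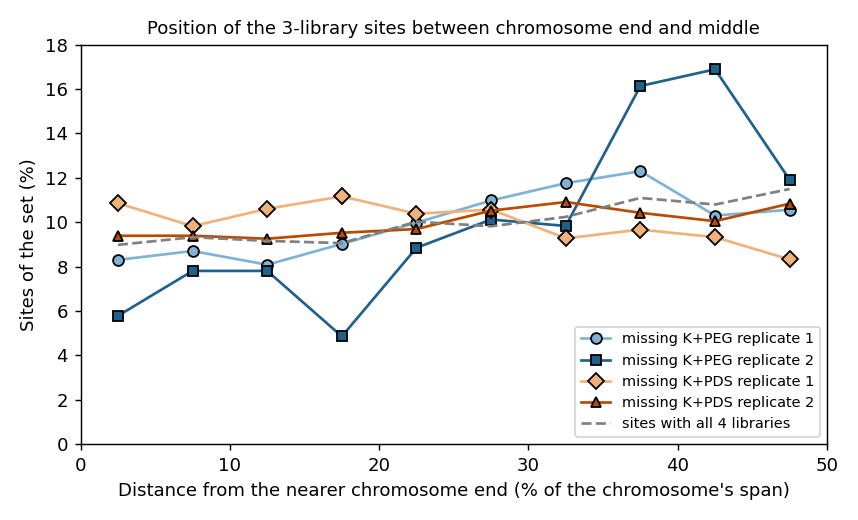
Percent of the sites of each set (vertical axis) by distance from the nearer chromosome end in classes of 5% of the chromosome's span (horizontal axis), for the 4 subclasses and, as a dashed line, sites with all 4 libraries. Sites missing K+PEG replicate 2 are scarce in the class next to the ends (5.78%) and peak between 35 and 45%, whereas those missing K+PDS replicate 1 fall to 8.32% in the innermost class.

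The members were spread over all 12 chromosomes, with 55.9 sites per Mb on average. Their share of the merged intervals ranged only from 17.3% on chromosome 8 and 17.7% on chromosome 10 to 18.8% on chromosome 12 and 19.9% on chromosome 2. The make-up varied more. Sites missing a K+PEG library made up 37.8% of the members on chromosome 4 and 37.1% on chromosome 12, and 25.5% on chromosome 3 and 28.5% on chromosome 2.

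In the 367 full bins of 1 Mb, the number of members was between 32 and 90, with a median of 55. The share that lacked a K+PEG library had a median of 29.4% and ranged from 9.30 to 73.4%, and it was above 50% in 28 bins. The bins named next were chosen after their values had been seen. The share was highest on chromosome 1 from 16000001 to 17000000 (58 of 79 members), on chromosome 7 from 12000001 to 13000000 (65 of 90, the bin with the most members) and on chromosome 5 from 12000001 to 13000000 (62 of 88). In the bin on chromosome 7, K+PEG replicate 2 was missing at 52 of the 144 sites called in the other 3 libraries, so that it called 63.9% of them, compared with 93.6% over the genome. The other 3 libraries called between 86.8 and 89.3% in the same bin. In the bin on chromosome 5, K+PEG replicate 2 called 69.2% and K+PEG replicate 1 called 80.4%, with 91.8% and 83.3% for K+PDS replicates 1 and 2. Of the 101 strong sites without K+PEG replicate 2, 75 (74.3%) lay in the 28 bins, compared with 28.6% of that whole subclass. The 28 bins were picked by their share missing a K+PEG library, so this is partly built in. In the other subclasses 0 of 12 (K+PEG replicate 1), 0 of 21 (K+PDS replicate 1) and 22 of 426 (K+PDS replicate 2) lay there. The 28 bins held 12.8%, 4.65% and 6.01% of these whole subclasses, in the same order. The 22 of 426 (5.16%) are thus near the share of their subclass, and 12 and 21 sites are too few to set a count of 0 against such shares. Of the 101, 18 lay in the bin on chromosome 7, 10 in that on chromosome 5 and 9 in that on chromosome 1. Another 10 lay on chromosome 9 from 2000001 to 3000000, also among the 28 bins.

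At the other end, the share that lacked a K+PEG library was lowest on chromosome 3 from 5000001 to 6000000 (4 of 43 members) and on chromosome 5 from 6000001 to 7000000 (5 of 52). In the bin on chromosome 5, K+PEG replicate 1 called 93.8% and K+PEG replicate 2 called 98.4% of the sites of the other 3 libraries, against 77.2% for K+PDS replicate 1 and 67.8% for K+PDS replicate 2. Across the 367 bins, the numbers of sites missing K+PEG replicate 1 and of those missing K+PEG replicate 2 had a Spearman correlation of 0.38, and those missing K+PDS replicate 1 and K+PDS replicate 2 one of 0.00. Between conditions, the counts for K+PEG replicates 1 and 2 had correlations of -0.29 and -0.31 with that for K+PDS replicate 1, and of 0.05 and 0.00 with that for K+PDS replicate 2. These correlations describe bins of the same libraries, whose counts depend on the sites present in each bin, and carry no test. With the numbers of 4-library sites per bin the correlation was 0.41 and 0.43 for sites missing K+PEG replicates 1 and 2, and -0.24 and 0.16 for sites missing K+PDS replicates 1 and 2.

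Neighbouring members tended to lack the same library. Of 20832 pairs of consecutive members, 36.5% missed the same library, whereas the shares of the 4 subclasses alone would give 30.0%. Among the 3152 pairs under 2000 bp apart it was 43.8%, and among the 6393 pairs 20000 bp or more apart 33.8%. For the condition of the missing library the share was 65.0% over all pairs, 68.0% for the close pairs and 63.8% for the distant ones, where the shares alone would give 56.2%. Close members can share fragments, so these pairs are not independent. The nearest merged interval of any kind lay at a median distance of 597 bp and was of each class about as often as that class occurs. It had 4 libraries for 22.6% of the members (21.7% of all merged intervals) and a single library for 34.8% (36.7%).

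The members bear on which peaks count as specific to a condition. The methods of the study take the segments shared by both replicates as reproducible and state no rule for specific ones. Here a reproducible segment was called specific when it overlapped no reproducible segment of the other condition, a rule chosen with the totals of the study in view. Under this rule a site missing a library of one condition can hold a specific segment of the other although a library of the first condition has a peak there. Of the 30245 PEG-specific segments so derived, 14760 (48.8%) lay in members that lack a K+PDS library, and of the 16034 PDS-specific segments, 7383 (46.0%) lay in members that lack a K+PEG library. A member that lacks a library of a condition cannot hold a reproducible segment of that condition. Any overlap of the peaks of its 2 complete replicates is therefore specific by the rule. Seen from the members, 14055 of 14106 sites (99.6%) and 6615 of 6738 sites (98.2%) held such a segment, shares that the rule sets in advance. In the other 51 and 123 sites, the peaks of the 2 replicates did not overlap each other. Gene annotation and base composition of these positions were not analysed here.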

How the data were processed

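BG4-DNA-IP-seq peaks of 2 K+PEG and 2 K+PDS libraries of rice were analysed, and the 2 inputs were not used here. Per the methods of the study, the authors ran Trim Galore 0.4.4 for trimming, BWA 0.7.17 for alignment against MSU v7.0 (alignments over 50 bp were kept), SAMtools 1.5 for duplicate removal, and then MACS2 2.1.1 on each library at p = 0.01. The control given to MACS2 and the read extension are not given in the sources used here. The deposited lists hold the authors' fold enrichment (a linear ratio), −log10 p, −log10 q and a browser score, of which the last 2 were not used. Printed starts are the listed starts plus 1. No list reaches below the threshold, and a missing call therefore does not show that signal was absent, and libraries with a higher background pass the threshold with a lower fold enrichment. A library with several peaks in a site was represented by its highest fold enrichment.

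From each peak's −log10 p and fold enrichment, summit reads and background were solved under MACS2's Poisson tail, and came out whole within 0.02 for 100% of peaks. Merging, library patterns, distances, read recovery and the exact test were checked on simulated data. The members and rules were chosen with earlier results of these data known. The named sites are, per subclass, the 3 with the highest lowest fold enrichment, the strongest without a peak of the missing library within 1000 bp (in each subclass also among these 3) and the site nearest the median. Chromosomes are named as the highest and lowest 2. Python 3.11.15, numpy 2.4.6, pandas 2.3.3 and scipy 1.17.1 were used. A comparison of GC content was planned but needs a genome sequence and was not run. The alternatives were another overlap, −log10 p, number of peaks or size limit, a shared base, the replicate block and, for length and position, each subclass left out. The crossed pairing and a distance of over 200 bp to the missing library were added after the data had been seen.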

Additional observations from a re-analysis of the deposited data

How the results depend on the processing

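The number of members stayed within 1.5 times of the reported value in all 7 settings in which it was recomputed. The share that lacked a K+PDS library was 74.2% with a −log10 p of at least 5, 63.8% with equal numbers of peaks, 69.7% with a size limit of 1000 bp and 68.4% with a shared base required. With a −log10 p of at least 5, the lowest fold enrichment had a median of 3.47 and 2921 sites missed K+PEG replicate 1, and with equal numbers of peaks 3010 sites missed K+PEG replicate 2. The share with a shared base was 97.4% with an overlap of at least 100 bp, 96.9% with a −log10 p of at least 5, 96.3% with equal numbers of peaks and 95.9% with the limit of 1000 bp. The difference in length, missing K+PEG minus missing K+PDS, was -13.5 bp with the limit of 1000 bp, 76 bp with a −log10 p of at least 5, 69.5 bp with equal numbers of peaks and from -22.5 to 57.5 bp with the subclass of 1 library left out, so neither its direction nor its size is settled. The difference in position kept its sign in each setting, from 2.53 to 7.65 percentage points with the subclass of 1 library left out. The rule needs 4 lists, so nothing could be recomputed without the peaks of a library.

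With the replicate number as a block, the differences of 5.09 percentage points in position and 17.5 bp in length are the same by construction, and 2 pairs cannot give a p below 0.5 in the exact sign-flip test, so the block cannot change a call. Deviations of same-numbered libraries at the 25155 sites with 4 libraries had a correlation of -0.17, which is the sign that crossed numbers would give. The crossed pairing, added after the data had been seen, is limited in the same way and gave 0 calls, which has no bearing on the pairing.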
